A study of Mus musculus with 9 samples.

Results

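In RAW264.7 cells, 107 of the 43629 genes in the files were at least 2-fold higher with LPS than in control and stood at or under 0.67 of the control level when sodium butyrate (NaBu) was present with LPS. They were chosen on group means of the normalised count, each plus 1, with a further limit of at least 100 for the LPS mean. A normalised count here is the number of reads of a gene divided by a size factor of its library, and it is not divided by gene length. Since the choice used the means of all 3 groups, the levels of these genes and the differences between groups are given as descriptions without a test.

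RAW264.7 is a macrophage-like line that arose in a mouse infected with Abelson leukaemia virus, and every library came from it. The groups were untreated cells (control), cells given lipopolysaccharide (LPS, an outer membrane component of Gram-negative bacteria), and cells given LPS after NaBu (LPS+NaBu), with 3 libraries each. The design text of the series calls the replicates biological and has NaBu before LPS, and doses and times for these libraries are not in the labels. Cells given NaBu without LPS were not analysed here, so the share of each value that needs LPS cannot be told apart from the effect of NaBu by itself. A bulk library also cannot separate fewer cells that express a gene from less RNA per cell.

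Macrophages detect LPS when CD14 hands it to the receptor TLR4 with its partner MD-2, and the adaptors MyD88 and TRIF then start NF-kB, MAP kinase and interferon signalling. A separate set of surface proteins (scavenger receptors, C-type lectins and Fc receptors) binds microbes and particles and signals through Src-family kinases, Syk and scaffold proteins such as SLP-76. Butyrate is a short-chain fatty acid made by gut bacteria that inhibits histone deacetylases.

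The 9 libraries held 37.6 M to 64.4 M recovered reads, and log2 values correlated across genes at 0.987 to 0.993 within groups and 0.890 to 0.946 between groups. Macrophage markers were present: Csf1r, the receptor for colony-stimulating factor 1, averaged 42749 normalised counts in control, Spi1 (the factor PU.1) 13413 and Emr1 (F4/80) 3690.1, while Mertk was near absent at 1.73 in control and 0.334 with LPS. Of 26 genes listed as markers of macrophage identity, 23 were tested and 3, Cd14, Mpeg1 and Cybb, were among the 107 genes. With LPS+NaBu against control, limma called 15 of the other 20 lower and 4 higher (adjusted p under 0.05). Over all tested genes these shares were 35.1% lower and 40.9% higher. The summed level of that list was 704017 to 723201 in control, 931879 to 984589 in LPS and 324319 to 352539 in LPS+NaBu libraries. Its part in the results was not tested.

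LPS-induced genes as a whole were 846 (a ratio of LPS to control of at least 2 and an LPS mean of at least 100), so the 107 genes made up 12.6% of them. Of the 846, 137 had a higher mean with LPS+NaBu than with LPS alone, and the rest did not. The other 739 induced genes mostly lay above control. With LPS+NaBu, 522 of them were above 1.5 times control, 130 lay between control and 1.5 times control, and 87 lay between 0.67 of control and control. In the plot of LPS-induced genes, the 107 therefore form the lower edge of a cloud that mostly lies above the control level.

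**Figure D1:**
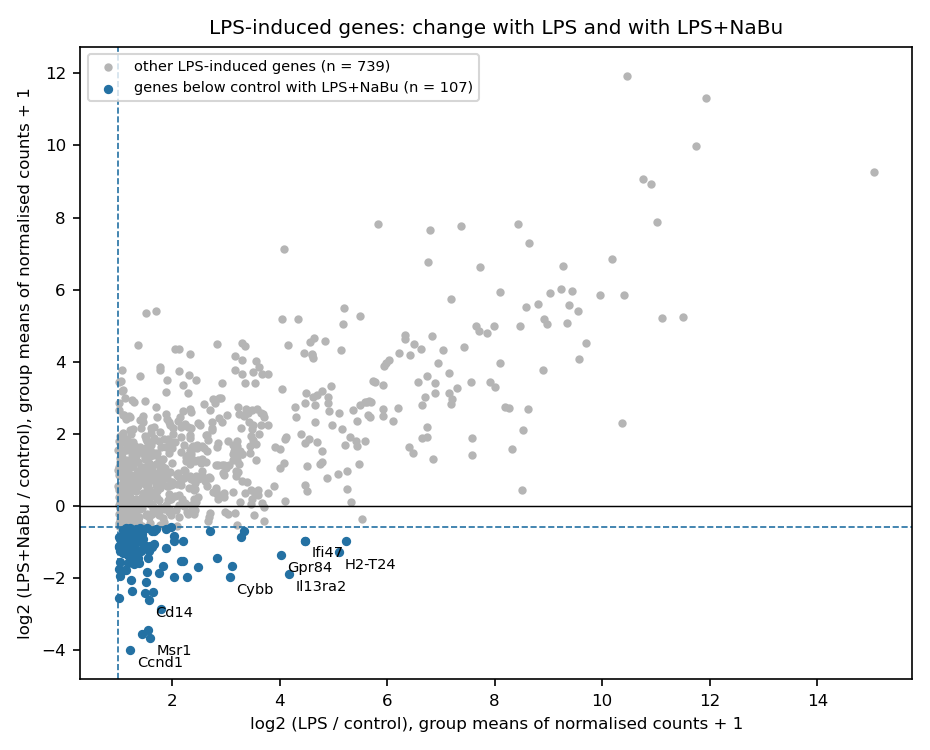
Each point is 1 of 846 LPS-induced genes. The horizontal axis is the log2 ratio of LPS to control and the vertical axis that of LPS+NaBu to control, both from group means of normalised counts plus 1, dashed lines are the limits of 2 and 0.67, and the solid line is the control level. The 107 chosen genes (blue) sit below the lower dashed line, and 73 of them had an LPS to control ratio under 3.

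The 107 genes had modest ratios with LPS for the most part and stood well below control with LPS+NaBu. Their ratio of LPS to control ran from 2.01 to 37.8 with a median of 2.60, and 13 genes reached 5. The ratio of LPS+NaBu to control ran from 0.0626 to 0.669 with a median of 0.443, which is 2.25-fold below control at the median and 16-fold at the extreme. Against LPS alone the genes were 3.39-fold to 83.4-fold lower, with a median of 6.23. In 66 genes the LPS+NaBu mean was at most 0.5 of control, in 12 at most 0.25, and in 4 (Ccnd1, Msr1, Igsf6 and Hmga2) at most 0.1.

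All 107 passed the filter on low values that 14808 genes passed (at least 10 normalised counts in at least 3 libraries). The LPS library with the lowest value lay above the highest control library in each of the 107, where 27.4% of the tested genes had that order. Every LPS+NaBu library lay below every control library in 105, where 36.5% of tested genes did. The rule itself leads to such an order, so nothing is read from these counts. The exceptions were Slc17a6, a vesicular glutamate transporter whose replicate 3 with LPS+NaBu (49.0) exceeded 2 control libraries (48.0 and 48.3), and Olfr56, which had 6.36, 20.0 and 7.04 normalised counts in control and 6.88, 8.92 and 0 with LPS+NaBu.

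Replicates were close. The coefficient of variation over 3 libraries had a median of 4.27% in control, 5.61% in LPS and 6.77% in LPS+NaBu libraries over these genes. Over the other 739 LPS-induced genes the medians were 7.23%, 5.87% and 5.75%. The heat map of the genes shows 3 blocks of nearly even colour for most rows, and the uneven rows belong to genes of low count such as Olfr56, Rnf186 and Tmco5.

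**Figure D2:**
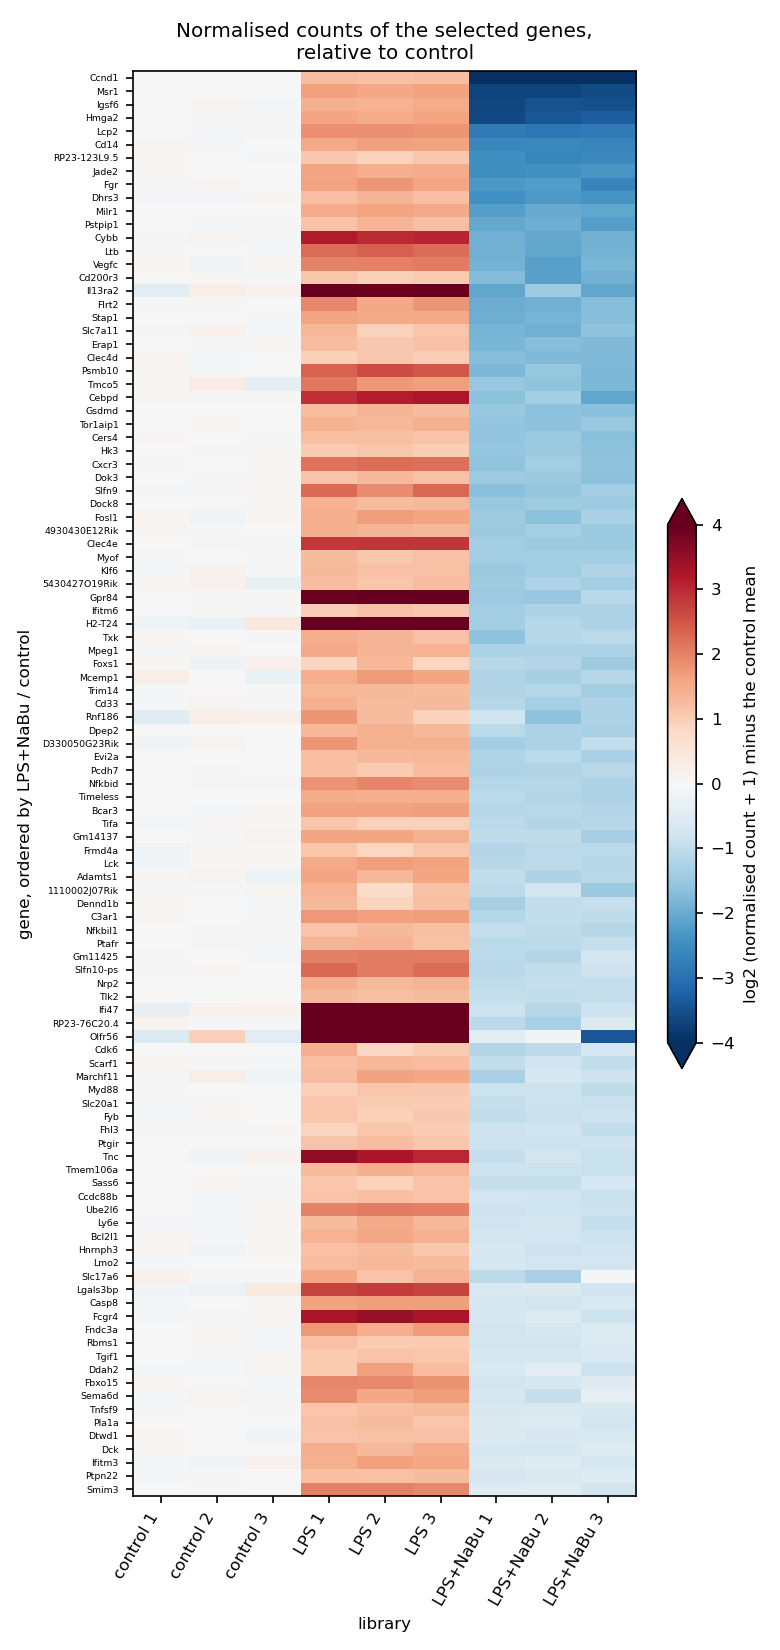
Log2 (normalised count + 1) of the 107 genes (rows, ordered by the ratio of LPS+NaBu to control, lowest on top) in the 9 libraries (columns), minus the mean of the 3 control libraries, with the colour scale ending at -4 and 4. All 107 rows are red in the LPS columns, and the LPS+NaBu columns fade from dark blue for Ccnd1 (ratio 0.0626) to pale blue for Smim3 (0.669).

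The genes were grouped by what their products do, with these groups made after the members were known. Sensors of microbes and particles with their adaptors counted 9: Cd14, Myd88, Tifa, Msr1, Scarf1, Clec4d, Clec4e, Fcgr4 and 5430427O19Rik. Their median ratio to control was 2.39 with LPS and 0.390 with LPS+NaBu.

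Cd14, the LPS-binding co-receptor of TLR4, was the most abundant of the 107 in control and LPS cells, also per kilobase of its transcript (33860.3 and 100971 normalised counts per kb). Its normalised counts were 57718, 53768 and 55209 in control, 157150, 171563 and 168367 in LPS and 9097, 9279 and 8884 in LPS+NaBu libraries. The 3 groups were far apart and each was tight. Relative to control the log2 change was 1.58 ± 0.048 (SE) with LPS and -2.61 ± 0.048 with LPS+NaBu, which is 6.11-fold below untreated cells. Per kilobase it stood at 5537 with LPS+NaBu, behind Ifitm3 at 11700.1.

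Msr1, scavenger receptor A, which takes up modified lipoproteins and bacteria, had 12199.6, 12421 and 12005 in control, 38206, 35388 and 37019 in LPS and 933, 942 and 1020.4 in LPS+NaBu libraries. The lowest control library exceeded the highest LPS+NaBu library more than 10 times over, and the ratio to control was 3.02 with LPS and 0.0791 with LPS+NaBu. Its gene lies at chr8:40034726-40095714 (reverse strand) in GRCm39. Scarf1, another scavenger receptor, had a smaller decrease to 0.526 of control, from 982 ± 55.7 to 516 ± 41.7 (SD, n = 3).

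Clec4e (Mincle) and Clec4d (MCL) are C-type lectins that bind mycobacterial glycolipid and pair with the Fc receptor gamma chain, and their genes are neighbours. Clec4e had 4508, 4598 and 4384 in control, 31607, 32346 and 32456 in LPS and 1731, 1635 and 1623 in LPS+NaBu libraries. Clec4d had 5898, 5332 and 5603 in control, 10922, 11919 and 10986 in LPS and 1712, 1663 and 1654 in LPS+NaBu libraries. The LPS mean was 7.15-fold that of control for Clec4e and 2.01-fold for Clec4d, while with LPS+NaBu they ended at nearly the same normalised count (1663 ± 59.5 and 1676 ± 31.5, SD, n = 3). Clec4d was the gene just inside the limit on the LPS ratio.

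Fcgr4, an activating receptor for IgG, had the largest ratio of LPS to control in this group, 10.1, with 359, 361 and 393 in control, 3564, 4135 and 3572 in LPS and 233, 255 and 206 in LPS+NaBu libraries. All 3 LPS+NaBu libraries lay below the lowest control library of this gene, though the distance was small beside the LPS step. The promoters of Clec4e and Fcgr4 are printed because they carry letters of factors that act in macrophages, and the RefSeq windows run from 250 bases before to 50 after the start, in GRCm38.p6, 5′ to 3′ on the strand of the gene. The capitals in Clec4e (chr6:123289822-123290121, reverse strand) mark a C/EBP match (TTGCNNAA on the other strand, 66 bases before the start) and a TATA box (TATAAA, 29 bases before). Those in Fcgr4 (chr1:171018676-171018975, forward strand) mark an ISRE core (GAAANNGAA, the letters of interferon-stimulated response elements, 73 bases before), a PU.1 match (GAGGAAGT on the other strand, 24 bases before) and a kappaB match (152 bases before).
Clec4e: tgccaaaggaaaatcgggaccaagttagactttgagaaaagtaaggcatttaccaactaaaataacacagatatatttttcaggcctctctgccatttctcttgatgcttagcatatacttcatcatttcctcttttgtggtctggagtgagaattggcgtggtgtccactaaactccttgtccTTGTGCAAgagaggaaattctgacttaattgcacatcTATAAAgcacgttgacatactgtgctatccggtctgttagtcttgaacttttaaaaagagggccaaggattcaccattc
Fcgr4: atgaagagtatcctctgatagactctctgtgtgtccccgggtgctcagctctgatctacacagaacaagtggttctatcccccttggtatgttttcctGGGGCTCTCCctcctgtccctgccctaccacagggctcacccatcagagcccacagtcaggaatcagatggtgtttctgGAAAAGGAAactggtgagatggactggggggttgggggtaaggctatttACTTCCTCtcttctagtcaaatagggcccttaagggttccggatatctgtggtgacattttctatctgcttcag

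The group held 3 adaptors. Myd88, the adaptor shared by most Toll-like receptors, had 3941, 3758 and 3784 in control, 7449.9, 8251 and 8046 in LPS and 2108, 2116 and 1892 in LPS+NaBu libraries, a ratio of 0.533 with LPS+NaBu. Tifa, which carries the bacterial sugar signal of ALPK1 to TRAF6, went from 622 ± 39.3 in control to 1252 ± 82.4 with LPS and 283 ± 9.02 with LPS+NaBu (SD, n = 3), which is 0.455 of control. 5430427O19Rik is Tasl in GENCODE, the adaptor that recruits IRF5 below endosomal Toll-like receptors, and its ratio to control was 2.28 with LPS and 0.39 with LPS+NaBu.

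The rest of the sensing lists was mixed with LPS+NaBu against control, where 40.9% of the 14808 tested genes were called higher and 35.1% lower by limma at an adjusted p under 0.05. Of 12 other tested Toll-like receptors and co-receptors, 4 rose and 8 fell. Against LPS alone, 11 of these 12 were called lower and 1 higher, where 37.8% of tested genes were called lower. Tlr7, the receptor for single-stranded RNA, fell to 0.0285 of control (adjusted p = 3.42e-14) and Cd180, a TLR4 homologue, to 0.179 (adjusted p = 7.19e-14). Tlr2, which was itself among the LPS-induced genes, was 1.71-fold above control with LPS+NaBu (adjusted p = 2.03e-08). Neither Tlr7 nor Cd180 reached the limit for LPS, with ratios of 1.18 and 1.67. Of 27 other adaptors, kinases and brakes of these receptors, 18 rose and 8 fell against control. For 17 other scavenger and efferocytosis receptors these counts were 8 and 7, and for 16 other tested C-type lectins 4 and 7. Clec5a, 1 of the 7 lectins that fell, was raised 1.67-fold by LPS and ended at 0.237 of control (adjusted p = 2.11e-12). Against LPS alone, 15 of the 27 were called lower and 7 higher. For the 17 scavenger receptors these were 9 and 6, and for the 16 lectins 13 and 2.

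**Figure D3:**
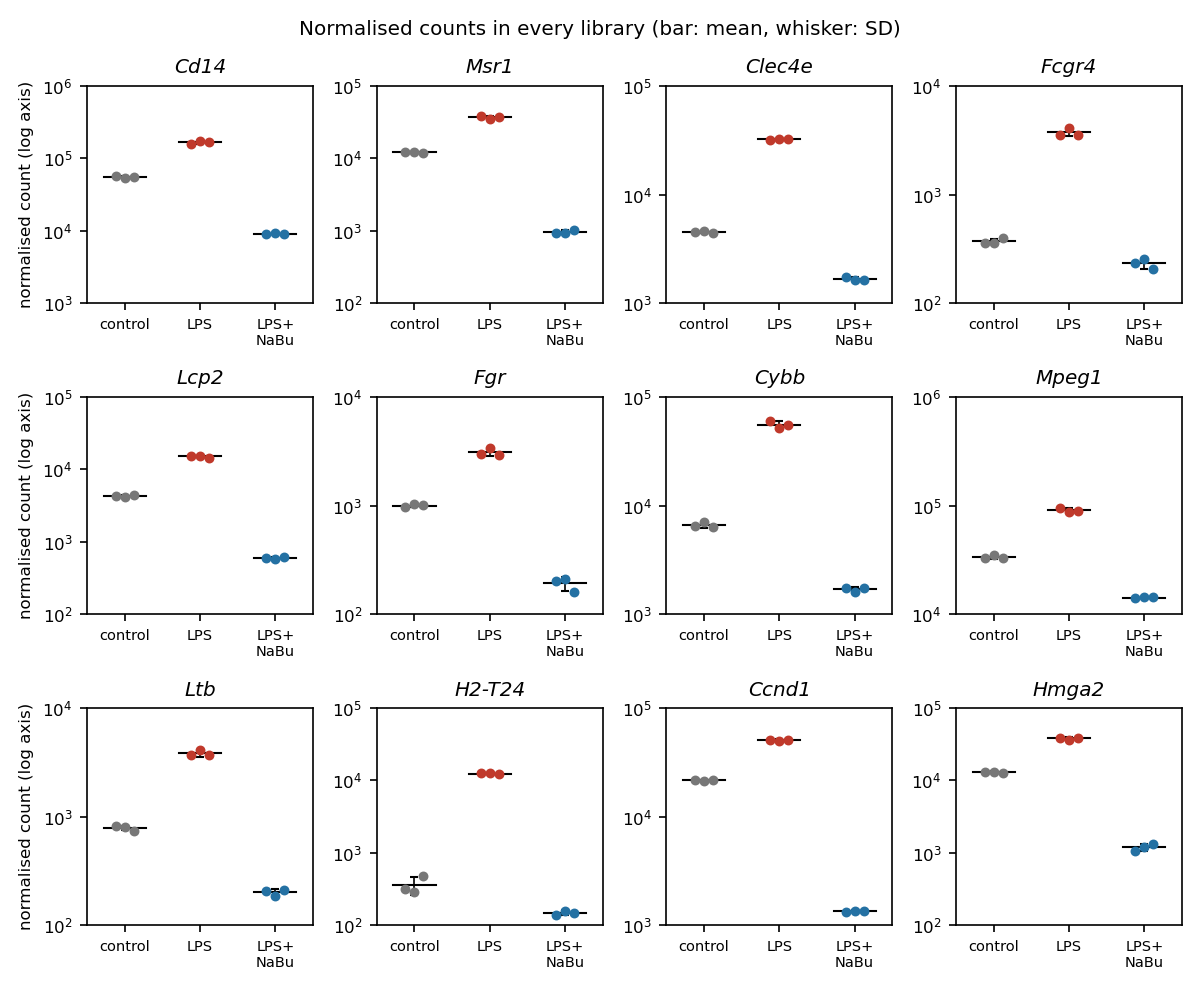
Normalised counts of 12 of the genes on log axes, 1 point per library (3 control in grey, 3 LPS in red, 3 LPS+NaBu in blue), with the mean as a bar and the SD as a whisker. In each of the 12 panels the LPS points lie above the control points and the LPS+NaBu points below them. The widest step down from control to LPS+NaBu is in Ccnd1, and that from LPS to LPS+NaBu is in H2-T24.

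Immunoglobulin-like receptors counted 4 and had the lowest median ratio of all groups with LPS+NaBu, 0.248. Igsf6, an immunoglobulin superfamily protein of myeloid cells with few known functions, had 1401, 1496 and 1396 in control, 3859.8, 3715 and 4026 in LPS and 113, 128 and 125 in LPS+NaBu libraries. Its LPS+NaBu libraries stood at 0.0859 of control, lower in ratio than all but Ccnd1 and Msr1. Milr1, an inhibitory receptor first known in mast cells, went from 3030.5 ± 47.2 in control to 8723 ± 313 with LPS and 707 ± 45.8 with LPS+NaBu (SD, n = 3). Cd200r3 of the CD200 receptor family ended at 0.262 and the sialic-acid lectin Cd33 at 0.424 of control. Of 26 other tested paired immunoglobulin-like and TREM receptors, 11 rose and 10 fell with LPS+NaBu against control. The shares over all tested genes were 40.9% higher and 35.1% lower.

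Proteins that relay immune receptor signals counted 11: Lcp2, Fgr, Lck, Txk, Stap1, Dok3, Fyb, Ptpn22, Pstpip1, Dock8 and Bcar3. Their ratios to control were 2.07 to 3.49 with LPS and 0.138 to 0.663 with LPS+NaBu. Lcp2 encodes SLP-76, the scaffold on which Syk-phosphorylated complexes assemble, and had 4321, 4199 and 4425 in control, 15346, 15225 and 14575 in LPS and 601, 579 and 609 in LPS+NaBu libraries. The LPS+NaBu libraries were close to each other and lay 7.23-fold below control.

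Fgr, a myeloid Src-family kinase, had 959.7, 1025 and 1005 in control, 3015, 3398 and 2945 in LPS and 202, 212 and 159.6 in LPS+NaBu libraries. Its LPS+NaBu level was 0.193 of control, a log2 change of -2.39 ± 0.10, wider in its error than that of Lcp2 (-2.85 ± 0.045). Fyb, known as ADAP or Fyb1, binds SLP-76 and links it to integrins, and its decrease was smaller, from 9092 ± 282 in control to 4892 ± 257 (SD, n = 3). Stap1, an adaptor that binds the receptor of colony-stimulating factor 1, ended at 0.282 and Dok3, which dampens such signals, at 0.346 of control.

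Pstpip1, an adaptor that binds the cytoskeleton and pyrin, was among the most abundant per kilobase (22508 normalised counts per kb with LPS). It had 18247, 17349.8 and 18421 in control, 40059, 46241 and 41185 in LPS and 4402, 4635 and 3932 in LPS+NaBu libraries. Dock8, an exchange factor for Cdc42, ended at 0.362 of control, and Bcar3, an adaptor of the Cas proteins, at 0.455. The phosphatase Ptpn22 lay just inside the limit at 0.663.

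The T cell kinase Lck and the Tec-family kinase Txk, better known from lymphocytes, were also members. Lck had 424, 478 and 466 in control, 1291, 1462 and 1391 in LPS and 208, 217 and 208 in LPS+NaBu libraries, and the 3 groups did not overlap. Txk was low, with 117 ± 6.74 in control, 296 ± 28 in LPS and 48.2 ± 9.06 in LPS+NaBu libraries (SD, n = 3). Of the 12 listed T and NK cell markers 3 were tested, and their summed level (1784 to 1989 in control, 4255 to 4378 in LPS and 560.4 to 616.8 in LPS+NaBu libraries) came almost wholly from Lck and Il7r. The defining markers Cd3e, Cd3g, Cd8a and Trac were at or near 0, with group means of 0 to 0.917.

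Of 26 other tested genes of the Fc receptor and Syk list, 18 fell and 6 rose with LPS+NaBu against control. The shares over all tested genes were 35.1% lower and 40.9% higher. Btk fell to 0.149 of control (adjusted p = 1.44e-13) and Tyrobp, the adaptor DAP12, to 0.46 (adjusted p = 5.21e-09), with LPS ratios under the limit (0.955 and 0.934). Among those that LPS did induce, Lyn, a Src-family relative of Fgr, was still 1.92-fold above control with LPS+NaBu (adjusted p = 6.79e-11). Fgr and Lyn were both higher with LPS and lay on opposite sides of control with LPS+NaBu.

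Chemoattractant and lipid mediator receptors counted 5, all coupled to G proteins. Gpr84, a receptor for medium-chain fatty acids, was 16.3-fold higher with LPS and had 168, 157 and 168 in control, 2528, 2852 and 2686 in LPS and 59.1, 56.9 and 75.3 in LPS+NaBu libraries. Its LPS+NaBu libraries were the only ones under 100 normalised counts, and they lay below every control library. Cxcr3, the receptor for the interferon-induced chemokines CXCL9 to CXCL11, had 409, 443 and 454 in control, 1957, 2053 and 1984 in LPS and 142, 164 and 143 in LPS+NaBu libraries. C3ar1, the receptor for the complement fragment C3a, went from 2914 ± 103 in control to 9302 ± 338 with LPS and 1408 ± 89.1 with LPS+NaBu (SD, n = 3). Ptafr, for platelet-activating factor, ended at 0.491 and Ptgir, for prostacyclin, at 0.552 of control. Of 37 other tested receptors of this list 18 rose and 12 fell against control, where 40.9% of tested genes rose and 35.1% fell. Against LPS alone, 20 of these 37 were called lower and 12 higher, where 37.8% of tested genes were called lower. Hcar2, a butyrate and niacin receptor, was 3.38-fold above control with LPS+NaBu (adjusted p = 1.04e-11), and Ccr1, for inflammatory CC chemokines, 1.8-fold (adjusted p = 2.35e-08). Both were also at least 2-fold higher with LPS alone than in control. C5ar1, for the fragment C5a, was raised 3.76-fold by LPS like C3ar1 but lay at 0.943 of control with LPS+NaBu (adjusted p = 0.442).

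The Cxcr3 promoter (chrX:101734098-101734397, reverse strand, GRCm38.p6) is printed because 3 of the motifs searched lie within a short stretch around its start. The capitals mark an ETS-IRF composite (GGAANNGAA on the other strand, 19 bases before the start) that runs into a PU.1 match (16 bases before), and a RUNX match (TGTGGTT on the other strand, 10 bases after).
Cxcr3: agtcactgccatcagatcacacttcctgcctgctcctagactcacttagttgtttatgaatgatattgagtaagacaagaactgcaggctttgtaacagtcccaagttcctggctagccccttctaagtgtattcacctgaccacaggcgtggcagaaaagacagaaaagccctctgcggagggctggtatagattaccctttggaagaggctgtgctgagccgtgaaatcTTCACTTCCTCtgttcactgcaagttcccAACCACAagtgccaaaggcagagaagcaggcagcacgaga

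Products that kill microbes or decide cell death counted 5. Cybb, the gp91phox subunit of the phagocyte NADPH oxidase, was 8.41-fold higher with LPS and had 6423, 7113 and 6294 in control, 60059, 51862 and 54776 in LPS and 1725, 1608 and 1737 in LPS+NaBu libraries. With LPS+NaBu the level was 0.256 of control and -1.97 ± 0.062 on the log2 scale. Mpeg1, perforin-2 of the phagosome, was more abundant, with 32497, 35248 and 33097 in control, 95200.5, 87057 and 88943 in LPS and 13923, 14202 and 14319 in LPS+NaBu libraries. For both genes the control, LPS and LPS+NaBu libraries formed separate groups.

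Gsdmd, the pore former of pyroptosis, went from 5346 ± 107 in control to 13102 ± 587 with LPS and 1749 ± 102 with LPS+NaBu (SD, n = 3). Casp8, the initiator caspase of death receptors, went from 2054 ± 74.4 to 6486 ± 138 and 1281 ± 73.2, and the survival protein Bcl2l1 (BCL-XL) from 11654 ± 574 to 31709.6 ± 1807 and 6765 ± 285. Genes that carry out cell death and a gene that holds it back were below control together. Of 32 other tested genes of the inflammasome and cell death list 15 rose and 12 fell with LPS+NaBu against control. This is near the shares over all tested genes, 40.9% higher and 35.1% lower.

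Among the partners of Cybb, Ncf1 (p47phox) fell to 0.0984 of control (adjusted p = 5.21e-15) and Cyba (p22phox) to 0.637 (adjusted p = 5.64e-06). LPS moved these partners by 1.2 and 1.27-fold, under the limit of 2. Of the 15 other tested genes of the oxidase and nitric oxide list, 8 rose and 5 fell with LPS+NaBu against control. Among 34 other tested lysosomal genes 16 rose and 17 fell. For both lists the shares over all tested genes were 40.9% higher and 35.1% lower.

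The Cybb promoter (chrX:9469275-9469574, reverse strand, GRCm38.p6) is printed because it holds 3 ISRE cores, the most among the 81 members with a promoter sequence. They start 167, 123 and 29 bases before the start, and the capitals also mark an AP-1 match 139 bases before, a RUNX match 103 bases before and an ETS-IRF composite 4 bases after.
Cybb: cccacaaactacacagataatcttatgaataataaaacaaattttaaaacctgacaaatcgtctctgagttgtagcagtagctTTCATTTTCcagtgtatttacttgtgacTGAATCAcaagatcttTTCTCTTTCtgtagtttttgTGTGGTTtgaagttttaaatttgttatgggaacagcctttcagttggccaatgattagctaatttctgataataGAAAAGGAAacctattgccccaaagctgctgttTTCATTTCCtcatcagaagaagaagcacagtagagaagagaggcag

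Secreted and matrix proteins with cytokine receptors counted 8, with a median ratio to control of 4.47 with LPS and a median ratio to control of 0.509 with LPS+NaBu. Ltb, lymphotoxin beta, a membrane-bound ligand needed for lymphoid tissue, had 810.2, 796 and 739 in control, 3656, 4086 and 3685 in LPS and 205, 185 and 209.5 in LPS+NaBu libraries. Vegfc, a growth factor of lymphatic vessels, had 1518, 1297 and 1479.6 in control, 5714, 5828 and 5997 in LPS and 382, 317 and 405 in LPS+NaBu libraries. These 2 ligands ended at about the same fraction of control, 0.257 and 0.257. Tnfsf9, the ligand of 4-1BB, was lowered less, to 0.646.

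Il13ra2, a decoy receptor of IL-13, was 18.2-fold higher with LPS, from a low level, and had 19.1, 32 and 30.2 in control, 551, 416 and 561 in LPS and 5.5, 8.92 and 5.44 in LPS+NaBu libraries. The LPS+NaBu libraries held under 10 normalised counts, so the ratio to control of 0.271 rests on few reads. Tnc (tenascin C, a matrix protein) was 9.75-fold higher with LPS at 705 ± 130.1 and stood at 39 ± 3.07 with LPS+NaBu, beside 71.4 ± 7.75 in control (SD, n = 3). Adamts1, a secreted protease, ended at 0.466, Pla1a, a phospholipase for phosphatidylserine, at 0.648, and Lgals3bp, a galectin-binding glycoprotein, at 0.623 of control. The third control library of Lgals3bp (6844) was higher than the other two (4988 and 4506), and the LPS+NaBu libraries (3079 to 3558) lay below all 3.

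Of the 23 LPS-induced genes on the cytokine and growth factor list 3 were members, where 12.6% of all LPS-induced genes were. Of 39 other tested cytokines and growth factors 30 rose with LPS+NaBu against control and 7 fell. None of the 12 LPS-induced chemokines was a member, and of 22 tested chemokines 20 rose and 1 fell. Of 45 other tested cytokine receptors 17 rose and 17 fell. Among all tested genes 40.9% rose and 35.1% fell in this comparison. Against LPS alone, 30 of the 39 cytokines and growth factors were called lower and 6 higher. For the 22 chemokines these were 14 and 6, where 37.8% of tested genes were called lower. The Ltb promoter (chr17:35194257-35194556, forward strand, GRCm38.p6) is printed with its kappaB match, 87 bases before the start, and its GAS match, 172 bases before, in capitals.
Ltb: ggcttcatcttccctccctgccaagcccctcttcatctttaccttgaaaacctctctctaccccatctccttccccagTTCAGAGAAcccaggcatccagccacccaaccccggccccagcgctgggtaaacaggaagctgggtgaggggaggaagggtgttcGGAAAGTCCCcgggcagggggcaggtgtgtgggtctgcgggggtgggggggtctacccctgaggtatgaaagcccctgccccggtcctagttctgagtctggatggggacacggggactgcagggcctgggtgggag

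Interferon-inducible and class I genes counted 12: Ifi47, H2-T24, Psmb10, Erap1, Ifitm3, Ifitm6, Ube2l6, Ly6e, Trim14, Slfn9, Slfn10-ps and Tor1aip1. H2-T24, a non-classical class I heavy chain, was 34.3-fold higher with LPS, the second largest ratio of the 107, and had 312, 289 and 478 in control, 12527, 12514 and 12115 in LPS and 135, 158 and 149 in LPS+NaBu libraries. The control libraries were spread from 289 to 478, and all 3 LPS+NaBu libraries lay below them. Psmb10, an immunoproteasome subunit, had 1861, 1748 and 1787 in control, 9166, 11064 and 10040.0 in LPS and 512, 627 and 519.7 in LPS+NaBu libraries. Erap1, which trims peptides for class I, ended at 0.293 of control, from 2314 ± 71 to 677 ± 28.1 (SD, n = 3).

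The remaining class I genes mostly stayed above control. Against LPS alone, 18 of the 26 other tested genes of the class I list were called lower and 3 higher. Of all tested genes, 37.8% were called lower in that comparison. Of 26 other tested genes of that list 22 rose and 1 fell with LPS+NaBu against control, where 40.9% of tested genes rose and 35.1% fell. Among the 22 was the immunoproteasome subunit Psmb9 (2.97-fold, adjusted p = 1.95e-10). Psmb8, the remaining subunit, had a ratio to control of 1.04 (adjusted p = 0.377), beside 0.308 for Psmb10.

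Ifi47, an immunity-related GTPase, was 22.3-fold higher with LPS and had 139, 198 and 194 in control, 3919.9, 4116 and 3887 in LPS and 96.3, 78.1 and 98 in LPS+NaBu libraries. It was not on the list of guanylate-binding proteins and GTPases, of which 15 of 18 tested rose with LPS+NaBu against control and none fell. The shares over all tested genes were 40.9% higher and 35.1% lower. Against LPS alone, all 18 were called lower. Ifitm3 and Ifitm6 encode membrane proteins that hinder virus entry, and they lie 4.33 kb apart. Ifitm3 had 21898, 20420.1 and 25440.3 in control, 59714, 70172 and 66032 in LPS and 15166, 15874 and 13784 in LPS+NaBu libraries, and at 0.662 of control it lay just inside the limit. Ifitm6 went from 2332 ± 87.1 to 4939.7 ± 313 and 953 ± 53 (SD, n = 3). Ube2l6, the conjugating enzyme of ISG15, ended at 0.565, Ly6e at 0.569, the tripartite motif protein Trim14 at 0.424 and the nuclear envelope protein Tor1aip1 at 0.334 of control.

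With Lgals3bp, 7 interferon-stimulated genes of 91 tested on that list were members (Ifitm3, Ifitm6, Ifi47, Lgals3bp, Ube2l6, Tor1aip1 and Ly6e). Of the other 84, 74 rose and 4 fell with LPS+NaBu against control, where 40.9% of tested genes rose and 35.1% fell. Against LPS alone, 78 of these 84 were called lower and 4 higher, where 37.8% of tested genes were called lower. Slfn9 and Slfn10-ps of the Schlafen family, whose related sequences leave the split of reads uncertain, stood at 0.35 and 0.509 of control with LPS ratios of 4.48 and 4.58. Of 6 other tested Schlafen genes 5 rose and 1 fell against control, with Slfn4 at 1.38 times control (adjusted p = 4.19e-06). All 6 were called lower than with LPS alone.

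Transcription and chromatin proteins counted 10. Cebpd (C/EBP delta) had the largest LPS ratio of them, 8.63, with 405, 367 and 403 in control, 2971, 3484 and 3712 in LPS and 126, 153 and 92.5 in LPS+NaBu libraries. Hmga2, a chromatin protein that binds AT-rich DNA, had 13003, 13246 and 12486 in control, 38902, 36413 and 38471 in LPS and 1064, 1212 and 1323 in LPS+NaBu libraries, and its LPS+NaBu mean was 0.093 of control, lower than all but Ccnd1, Msr1 and Igsf6. Hmga2 was also among the 5 most abundant of the 107 per kilobase with LPS (21142). Jade2, a subunit of histone acetyltransferase complexes, had 3071, 2939 and 2949 in control, 8833, 8138 and 8393 in LPS and 545, 555 and 588 in LPS+NaBu libraries and ended at 0.189.

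Fosl1 (the AP-1 subunit FRA-1) ended at 0.366, Klf6 at 0.389, Foxs1 at 0.423, Lmo2 at 0.599 and Tgif1 at 0.626 of control. Nfkbid, an atypical IkB protein of the nucleus, went from 1278 ± 44.9 in control to 4714 ± 281 with LPS and 566 ± 18.2 with LPS+NaBu (SD, n = 3), and Nfkbil1, named for its likeness to IkB proteins, ended at 0.487. The ratios within this group spanned 0.0930 to 0.626. Over all tested genes 40.9% were called higher and 35.1% lower with LPS+NaBu against control. Of 16 other tested members of the NF-kB and IkB list 13 rose and 2 fell against control. Among 51 other tested myeloid factors 23 rose and 19 fell, with Spi1 at 0.178 of control (adjusted p = 1.33e-12) and an LPS ratio of 1.24. None of the 11 LPS-induced genes on the list of interferon regulatory factors, STATs and JAKs was a member, where 12.6% of all LPS-induced genes were. Of the 23 tested genes on that list, 18 rose and 5 fell against control. Against LPS alone, 12 of these 23 were called lower and 9 higher. For the 16 genes of the NF-kB and IkB list these were 9 and 3, where 37.8% of tested genes were called lower.

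Cell cycle and DNA genes counted 6, with LPS ratios between 2.08 and 2.76. Ccnd1, cyclin D1, which drives entry into S phase with CDK4 and CDK6, had the lowest ratio to control of all, 0.0626. Its normalised counts were 21614, 21280.2 and 21733 in control, 50782, 49432 and 51088 in LPS and 1321, 1359.6 and 1361 in LPS+NaBu libraries. The libraries of each group were close together, and the LPS+NaBu mean lay 16-fold below control. The gene (ENSMUSG00000070348) lies at chr7:144483668-144493662 (reverse strand) in GRCm39.

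Its partner kinase Cdk6 had 2173, 2250.2 and 2187 in control, 6002, 3911 and 4515 in LPS and 978, 1062 and 1377 in LPS+NaBu libraries, with wider spread among LPS libraries. Timeless, a replication fork protein, went from 3820.0 ± 53.4 to 10534 ± 66.6 with LPS and 1702 ± 98.6 with LPS+NaBu (SD, n = 3). The deoxynucleoside kinase Dck ended at 0.654, the chromatin kinase Tlk2 at 0.513 and the centriole protein Sass6 at 0.553 of control.

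Membrane, adhesion and trafficking proteins were the largest group with 15 genes, and their ratios to control with LPS+NaBu ran from 0.274 to 0.669. The lowest was Flrt2, a guidance and adhesion protein, which had 5474, 5982 and 5897 in control, 21884, 16938 and 19696 in LPS and 1466, 1532 and 1761 in LPS+NaBu libraries. Nrp2, a receptor for semaphorins and VEGF-C, was abundant and had 34682, 34709 and 34769.7 in control, 95533, 85781 and 89645 in LPS and 17175, 17871 and 18044 in LPS+NaBu libraries. Its control libraries had the smallest coefficient of variation of the 107 genes (0.130%), and the LPS+NaBu mean was 0.51 of them. Myof (myoferlin, of membrane repair) went from 20923 ± 681 to 47230.2 ± 2838 with LPS and 8126 ± 90.1 with LPS+NaBu, and Pcdh7 (a protocadherin) from 13782 ± 312 to 30909 ± 2078 and 6067 ± 236 (SD, n = 3). The others were Sema6d, Frmd4a, Fndc3a, Marchf11, Tmem106a, Evi2a, Mcemp1, Smim3, Ccdc88b, Dennd1b and Fhl3, with ratios of 0.423 (Mcemp1) to 0.669 (Smim3).

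Metabolic enzymes and transporters counted 8. Hk3, the hexokinase of myeloid cells, had 13633, 13369 and 14178 in control, 27747, 29629 and 27339 in LPS and 4709, 4919.8 and 4401 in LPS+NaBu libraries. Slc7a11, the cystine importer that feeds glutathione, went from 1724 ± 169 to 3771 ± 523 and 500.5 ± 58.4 (SD, n = 3), and Dhrs3, which reduces retinal, from 4060.2 ± 170.3 to 9724 ± 575 and 789 ± 32.1. The LPS+NaBu ratio of Dhrs3, 0.195, was the lowest of the group. The ceramide synthase Cers4 ended at 0.336, the dipeptidase Dpep2 at 0.433, the phosphate carrier Slc20a1 at 0.535, Slc17a6 at 0.614 and Ddah2 at 0.638 of control. RNA and protein turnover held 5 genes (Hnrnph3, Rbms1, Rnf186, Fbxo15 and Dtwd1) with a median ratio of 0.626, the highest of the groups.

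**Figure D4:**
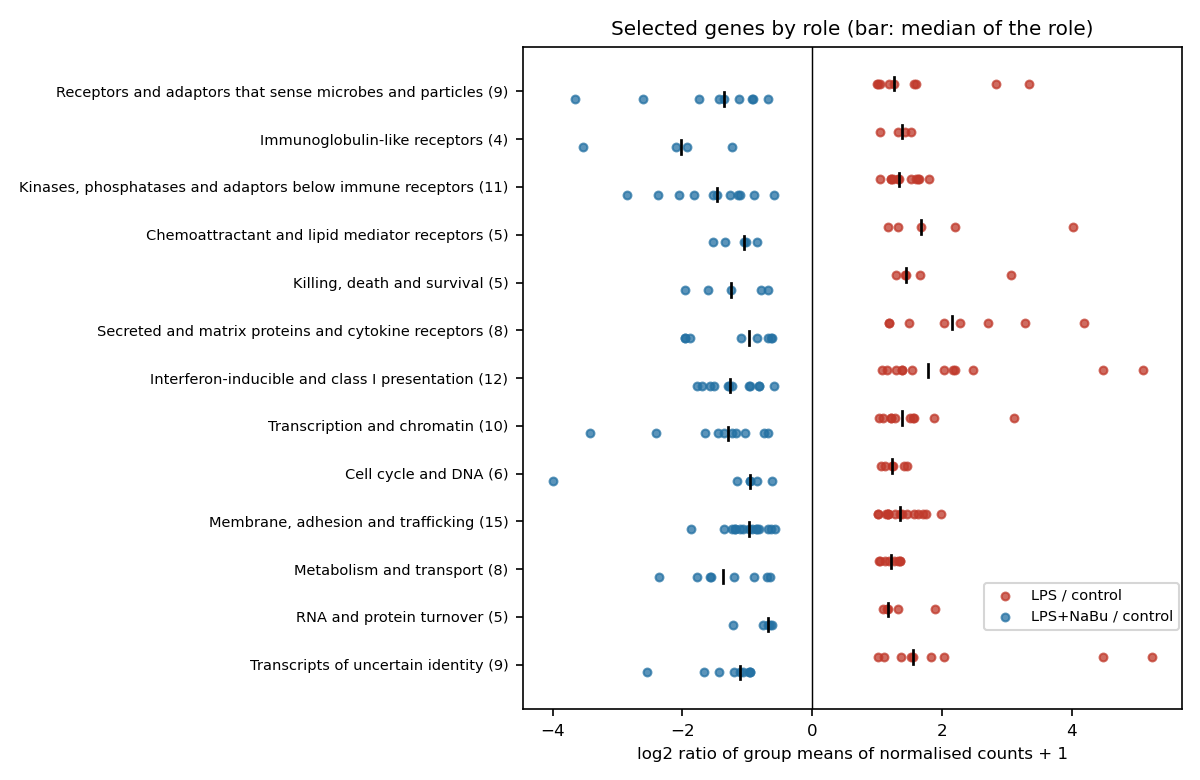
Each gene is a point in the row of its group (number of genes in brackets), with the log2 ratio of LPS to control in red and of LPS+NaBu to control in blue, and black bars for the medians. The lowest blue points belong to Ccnd1, Msr1, Igsf6 and Hmga2, in 4 different groups, and the immunoglobulin-like receptors have the lowest blue median (ratio 0.248).

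Transcripts of uncertain identity counted 9. RP23-76C20.4 (Gm19026 in GENCODE, a processed pseudogene at chr1:6499879-6511520 (reverse strand) in GRCm39) had the largest LPS ratio of all, 37.8. It had 86.7, 75 and 74.4 in control, 3825, 2279 and 2928 in LPS and 36.4, 31.2 and 52.6 in LPS+NaBu libraries. The LPS libraries were uneven, yet each was at least 20 times the control values, and the LPS+NaBu libraries lay below control. RP23-123L9.5 (Gm20056, a processed pseudogene) had 2672, 2537 and 2419 in control, 5310.5, 4857 and 5314 in LPS and 459, 417 and 425 in LPS+NaBu libraries. It lies wholly within exons of Tm4sf19 on the same strand (519 bases shared), whose own means were 3596, 7063 and 518.7 in the same order of groups, so the reads of these genes cannot be told apart.

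Gm11425 is a processed pseudogene 132 bases from Slfn10-ps, and the long noncoding RNAs 4930430E12Rik, D330050G23Rik and 1110002J07Rik ended at 0.37, 0.435 and 0.476 of control. Tmco5 and Gm14137, with little known function in macrophages, ended at 0.316 and 0.461. Olfr56, named Or2v1 in GENCODE, spans Ifi47 on chromosome 11 and shares 111 exon bases with it on the same strand, and at a mean of 269 with LPS it held far fewer reads than Ifi47 (3974).

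Of the 107 genes 101 were protein-coding. Genes within 100 kb of another of the 107 formed 7 places. Besides Olfr56 with Ifi47, Clec4d with Clec4e and Ifitm3 with Ifitm6, these were Slfn9 with Gm11425 and Slfn10-ps on chromosome 11, Ltb with Nfkbil1 on chromosome 17 (23.9 kb apart), Tmco5 with D330050G23Rik on chromosome 2 (6.26 kb) and Psmb10 with Dpep2 on chromosome 8 (46.5 kb). Chromosome 11 held 13 of the 107 and 99 of the 846 induced genes, and chromosome 2 held 12 and 75.

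Exons of several members overlap expressed genes on the other strand, and whether the counting used strand is not stated in the study's methods. For Ccnd1 the overlapping Oraov1 (2315 bases shared) had means of 931.3, 1103 and 1963 in control, LPS and LPS+NaBu, and for Trim14 the overlapping Nans had 7351, 4456 and 8054. For Myd88 the partner Acaa1a (628 bases) had 9112, 8335 and 9608. These 3 partners did not follow the up and down order of the member. Of the 27 partners on the other strand with a mean of at least 10 in some group, which belong to 24 members, 7 were above control with LPS and below it with LPS+NaBu, and 20 were not. The 7 were 4930469K13Rik (overlapping Lcp2), Unc5a (Hk3), Spidr (Cebpd), Atp6v1g2 (Nfkbil1), Gm13990 (D330050G23Rik), 9830144P21Rik (Slc20a1) and Dus2 (Dpep2). The means of Atp6v1g2 were 203, 281 and 73.8 in control, LPS and LPS+NaBu, those of Dus2 1290, 1711 and 1172 and those of 4930469K13Rik 10.9, 36.4 and 1.58. The part of shared reads in these members was not tested.

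Gene structure was not used by the rule. Protein-coding members had a median of 7 exons in the canonical transcript and a transcript length of 2830 bases, beside 8 exons and 3256.5 bases in the other induced genes and 9 exons and 3340 bases in all tested genes. The median genomic span was 20402, 22166 and 24583 bases in the same order. These are descriptions of sets of unequal size.

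RefSeq promoters in GRCm38.p6 matched 81 of the 107 genes by symbol, and the other 26 included Cd14, Msr1 and Ccnd1. Of the 81, 29.6% had a CpG ratio (observed over expected CG steps) of at least 0.6, beside 47.3% of 543 other induced promoters, 69.4% of 9907 promoters of tested genes and 36.5% of all 27025 promoters. The median GC content was 53.7%, 58.0%, 60.7% and 52.7% in these sets. Members were thus poorer in CpG than the tested genes and near the level of the whole table.

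The 11 motifs were searched on both strands. The RUNX letters were found in 12 of 81 members (14.8%), beside 4.60% of other induced, 3.59% of tested and 5.37% of all promoters. The 12 were Milr1, Cybb, Flrt2, Hk3, Cxcr3, Myof, Timeless, Bcar3, Lck, Slc20a1, Casp8 and Dck. Restricted to the 100 bases before and 50 after the start, the RUNX share was 7.41%, beside 2.95%, 1.55% and 2.75%. The ISRE core stood in 16% of members and 19% of other induced promoters, above the 7.45% of tested promoters in both.

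The TATA box was in 18.5%, 12.5%, 7.06% and 14.2% of members, other induced, tested and all promoters, AP-1 (TGANTCA) in 12.3%, 10.3%, 5.37% and 7.93%, and C/EBP in 13.6%, 10.1%, 8.28% and 10.8%. KappaB matches were in 11.1%, 15.5%, 10.1% and 8.18%, PU.1 in 6.17%, 5.16%, 3.18% and 3.28%, and the ETS-IRF composite in 8.64%, 11.4%, 7.31% and 8.25%. GAS (TTCNNNGAA) was in 11.1%, 8.84%, 6.99% and 8.47%, the E-box (CACGTG) in 9.88%, 7.92%, 9.94% and 7.24%, and CRE (TGACGTCA) in 0%, 2.95%, 3.33% and 1.88%. ISRE core, ETS-IRF and PU.1 letters can overlap each other, as in Cxcr3. A match is a description of letters in the window and not of binding.

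**Figure D5:**
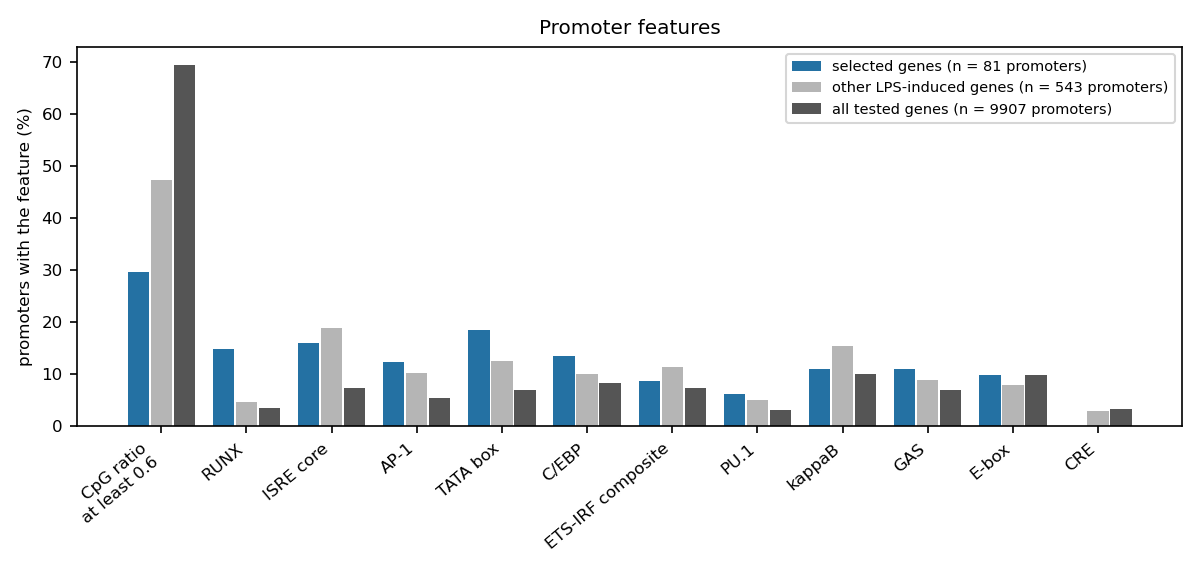
Share of promoters (%) with a CpG ratio of at least 0.6 or with each motif, for 81 promoters of the chosen genes (blue), 543 of other LPS-induced genes (light grey) and 9907 of all tested genes (dark grey). The CpG bars descend from 69.4% in all tested genes to 29.6% in the chosen genes, and the RUNX bar of the chosen genes (14.8%) stands above the other two (4.60% and 3.59%).

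The list of 107 depends on its limits. Just inside the LPS limit were Clec4d (ratio 2.01), Fhl3 (2.01) and Tifa (2.01), and just outside were Nfxl1, Il7r and M6pr-ps (1.99 for each), of which Il7r ended at 0.249 of control. Just inside the limit for LPS+NaBu were Smim3, Ptpn22 and Ifitm3 (0.669, 0.663 and 0.662), and just outside Bcl3, Cln3 and Mcoln2 (0.673, 0.675 and 0.677). For the LPS level, 1110002J07Rik, Slc17a6 and Rnf186 (131, 133 and 147) were the lowest inside, and RP24-321N12.1, Gm7497 and Gbp8 (86.8, 81.9 and 75) the highest outside.

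The rule was also applied to 2 libraries per group, and the third library of each group was then read. Without the libraries numbered 1, 2 and 3 in turn, 100, 116 and 105 genes were chosen, and 84, 80 and 83 of them met all 3 limits in the libraries left out. In those libraries LPS was above control for every chosen gene, as it was for 45.7%, 46.5% and 45.9% of tested genes, and LPS+NaBu was below control for 99, 115 and 102, as it was for 46.2%, 46.8% and 46.9% of tested genes. These counts are a description, since the limits were set with all libraries known. The median ratio of LPS+NaBu to control there was 0.433, 0.450 and 0.438. Scaled to the same total per library, the LPS values lose 0.227 on the log2 scale against control, and 70 of the 107 genes still met the rule. Among the 37 that did not were Clec4d, Myd88, Hk3, Ifitm3 and Cdk6, while for all 107 LPS remained above control and LPS+NaBu below. Over all libraries limma called 25.2% of tested genes higher with LPS than in control and 37.8% lower with LPS+NaBu than with LPS.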

How the data were processed

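RNA of RAW264.7 cells was sequenced in 9 libraries, 3 per group, by what the study's methods call mRNA sequencing. Per the study's methods, libraries were directional, Trimmomatic removed adapters, HISAT2 aligned the reads and featureCounts counted those that mapped uniquely. In the submitters' processing notes the tools are STAR 2.7.7a with DESeq2, on mm39, so which aligner made the values is unsettled. The values the authors deposited under the name FPKM are a signal of another kind: counts per gene over a size factor of the library. In all libraries 100% of the values came out whole, to within 0.001, once divided by the value of 1 read, and reads were recovered this way. For 3 libraries 1 read is worth within 1% of 1, where this check says little. Depth was 37.6 M to 64.4 M recovered reads, and intervals were not needed since no share of counts in a single sample is reported.

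The rule took group means plus 1, with limits of 2 (LPS over control), 0.67 (LPS+NaBu over control) and 100 (LPS). Levels are means ± SD of 3 libraries. Log2 changes ± SE and calls come from limma 3.58.1 in R 4.3.3 on log2(normalised count + 1) with an intensity trend over all 9 libraries, two-sided, Benjamini-Hochberg adjusted over 14808 genes with at least 10 in at least 3 libraries; a call is an adjusted p under 0.05. This scale understates changes of low genes. Alternatives used edgeR 4.0.16 and DESeq2 1.42.0 on the recovered reads, other scalings, pseudocounts, filters and limits, and each library left out. The series' design text calls the replicates biological but does not name separate cultures, and part of the spread behind the p-values may be technical.

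Members and gene lists (36) were chosen with earlier results of these data known. Genes named were the 15 members with the smallest ratio of LPS+NaBu to control, the 10 with the largest ratio of LPS to control, the 10 with the highest LPS mean, members on a list, members within 100 kb of another and the 3 genes on either side of each limit; the remaining members are named to account for all 107. Coordinates are GENCODE M39 on GRCm39, numbered from 1, matched by identifier for 38984 of 43629 genes (all members). Promoter sequences are RefSeq's on GRCm38.p6. No column of other samples was used.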

Additional observations from a re-analysis of the deposited data

How the results depend on the processing

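The number of genes that met the rule was 107, and 66, 228 and 34 with a limit of 0.5 for LPS+NaBu over control, 1.5 for LPS over control and 3 for LPS over control, and 70 with an equal total for every library. Other pseudocounts, TMM factors (124), group medians (101), other limits on the LPS level and a limit of 0.8 (136) kept it within 1.5 times of 107, and without 1 library at a time it was 102 to 112. Genes called by limma numbered 8307 for LPS over control, 11558 for LPS+NaBu over LPS and 11267 for LPS+NaBu over control. Without 1 library at a time these were 7521 to 8333, 11147 to 11519 and 10733 to 11467, and every alternative tried for them stayed within 1.5 times. Scaling to the same sum moved the LPS calls from 3739 higher of 8307 to 2273 higher of 9347, and 15 of 612 called list genes that are no members changed direction with LPS, none of 657 with LPS+NaBu against control. With the replicate number as a block the counts were 7977, 11464 and 11124; same-numbered libraries of different groups correlated in their deviations at -0.0444 to 0.0202, other pairs at -0.0686 to 0.0761, and 0 libraries correlated best with their own number, so the numbers are not taken to pair the libraries. In the promoters, the shorter window gave 6.17% for AP-1, 4.94% for the E-box and 8.64% for the TATA box. Levels below about 10 normalised counts (Il13ra2 and Olfr56 with LPS+NaBu) rest on few reads.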
